A study of Mus musculus with 16 samples.

Results

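Loss of Arglu1 in hepatocytes on a chow diet was described by setting the 4 liver libraries labelled LKO and chow against the 4 labelled WT and chow, which together are 8 of the 16 libraries of the study. The members were chosen by their genotype and diet labels alone, and the comparison ran across all genes. Both groups came from female mice that were aged to 9 months on chow and then stayed on chow for another 12 weeks. LKO mice lacked Arglu1 in hepatocytes, and WT mice were wild type. The other 8 libraries came from mice of the same genotypes that were moved to a high-fat diet (HFD, TD. 88137) for those 12 weeks. The labels name neither the promoter that drove the deletion nor the exons removed, the strain, the littermate status or the time of day at collection. Nor do they tie each library to its own animal, so every error and p-value below measures the spread between these libraries.

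ARGLU1 is a nuclear protein rich in arginine and glutamate that acts as a coregulator of nuclear receptors, binds the Mediator complex through which such receptors reach RNA polymerase II, and takes part in alternative splicing. Hepatocytes make up most of the liver's mass and carry its metabolic and secretory work. Whole liver was sequenced, so RNA of immune, endothelial, stellate and bile duct cells is counted too, and fewer cells of a type and less RNA per cell cannot be told apart. Counts per gene do not show which exons were used.

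Arglu1 itself was read first, as a check of the labels. Its level was 40.4, 45.1, 39.9 and 39.5 CPM (counts scaled by library size) in WT libraries 1 to 4 and 15.99, 15.9, 13.98 and 12.8 CPM in LKO libraries 1 to 4. Every LKO library lay below every WT library, and the means were 41.2 ± 2.62 for WT and 14.7 ± 1.56 CPM for LKO (SD over 4 libraries a group). The fitted log2 fold change was -1.49 with SE 0.09 and an adjusted p of 8.03e-09. The gene, ENSMUSG00000040459.11, spans chromosome 8 from 8665075 to 8690521 (mm10/GRCm38, minus strand). In gene counts, Arglu1 reads of cells that keep the gene and reads of exons outside the deletion cannot be told apart.

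The chow libraries held between 19142612 and 25120565 estimated counts each, and depth did not separate the genotypes (2-sided exact permutation test of 4 against 4, p = 0.8, smallest possible p 0.0286). More genes had at least 1 count in LKO (18637 ± 159) than in WT (18054 ± 165; SD, n = 4 each; exact permutation p = 0.0286, 0.0571 after adjustment over the 2 library tests). The first principal component of the 8 chow libraries, with 46.8% of the variance, separated LKO from WT. The second, with 19.3%, lay almost wholly within the genotypes. It placed LKO libraries 1 and 2 at -32.2 and -35.1 and LKO libraries 3 and 4 at 23.8 and 24.6, while WT spread from -15.9 to 23.3. Dbp, an output factor of the circadian clock, had the highest loading on it (0.0743), close to that of a protocadherin gene (0.0706). What set this component was not tested. Dbp stood at 6.696, 1.43, 48.97 and 66.9 CPM in LKO libraries 1 to 4 and at 43.6, 17.9, 34.1 and 105 CPM in WT libraries 1 to 4, and was not called (adjusted p = 0.599), though it passed the test without LKO libraries 3 and 4. The LKO group thus held 2 unlike pairs, and counts below are also given without LKO libraries 1 and 2 and without LKO libraries 3 and 4.

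**Figure D1:**
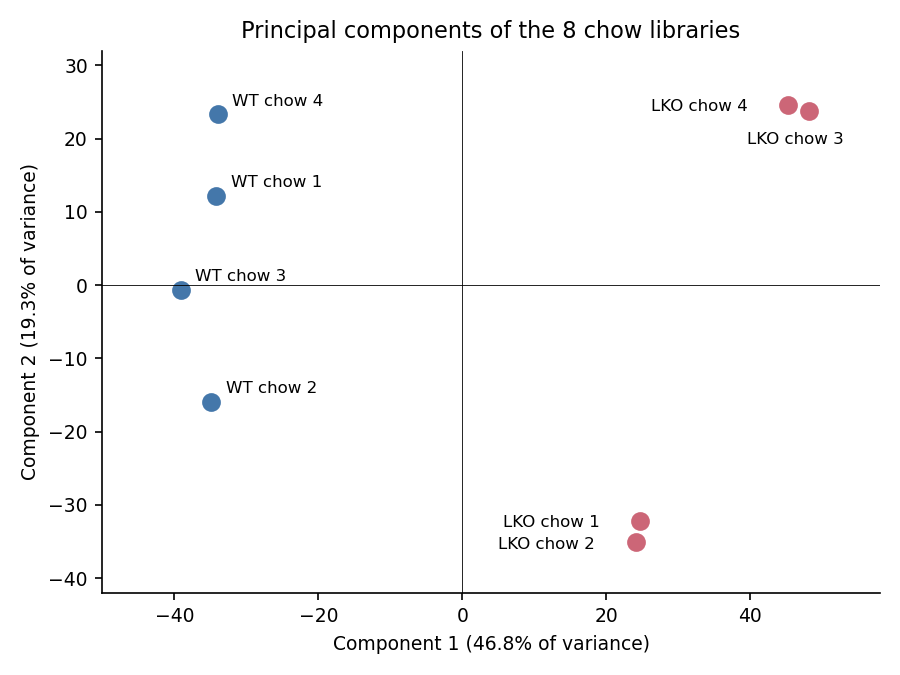
Principal components of log2 CPM in the 8 chow libraries, with component 1 (46.8% of the variance) on the horizontal axis and component 2 (19.3%) on the vertical axis. Each point is 1 library. All 4 LKO libraries lie right of all 4 WT libraries, and LKO libraries 1 and 2 (-32.2 and -35.1 on component 2) lie apart from LKO libraries 3 and 4 (23.8 and 24.6).

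Across all genes, LKO livers on chow gained transcripts that WT livers barely held and lost several female-biased sulfotransferases and cytochromes. Of 14434 genes tested, 3565 (24.7%) were called at an adjusted p below 0.05, 1867 (12.9%) higher and 1698 (11.8%) lower in LKO. Rises were larger than falls: 905 genes (6.27%) were called with at least a 2-fold change, of which 743 (5.15%) rose and 162 (1.12%) fell. The libraries of the 2 genotypes did not overlap for 3093 genes (21.4%), with LKO above WT for 1652 (11.4%) and below it for 1441 (9.98%). Without LKO libraries 1 and 2 the count of called genes was 5036 and without LKO libraries 3 and 4 it was 2373. With 1 library left out it ranged from 2698 to 3919. In the gene lists below, counts of 0 or 1 could move by 1 gene in such fits, and larger moves are named beside each list. The counts of every list stand beside 12.9% of all genes called higher and 11.8% called lower.

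Among the largest rises were genes that are nearly silent in WT liver. Psrc1, which encodes a microtubule-binding protein of the mitotic spindle, stood at 0.153, 0.252, 0.377 and 0.2898 in WT and at 32.3, 37.4, 39.8 and 33.6 CPM in LKO, which is 7.04 on the log2 scale (fitted, SE 0.27, adjusted p = 1.26e-11). It lies on chromosome 3 at 108383839 to 108388231, with Sort1 (108284082 to 108361511) on one side and Celsr2 (108390851 to 108415552) on the other, in a region known from human genetics for its link to plasma cholesterol. The neighbours, Celsr2 named here after its values were seen, did not move alike. Sort1, a sorting receptor of the secretory pathway, rose by 2.44 (log2, SE 0.27, adjusted p = 8.83e-06), and Celsr2, a cadherin, stood at -1.10 and was not called (adjusted p = 0.168). Slc1a1, a glutamate transporter, went from 0.367 ± 0.2402 CPM in WT to 12.03 ± 2.62 CPM in LKO, Slc13a5, the citrate transporter, from 0.887 ± 0.577 to 26.5 ± 5.67 CPM, and Aqp7, a glycerol channel typical of adipocytes and kidney, from 0.303 ± 0.155 to 14.8 ± 3.699 CPM. Nat8, an acetyltransferase abundant in kidney, went from 0.8595 ± 0.265 to 25.8 ± 4.91 CPM. Ly6a, which encodes the stem cell antigen Sca-1 and is induced by interferon, stood at 11.2, 11.02, 11.9 and 11.8 in WT and at 306, 304, 348 and 369 CPM in LKO (4.85, SE 0.12, adjusted p = 1.31e-14). The genotypes overlapped for Celsr2 and for none of the other genes of this paragraph.

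**Figure D2:**
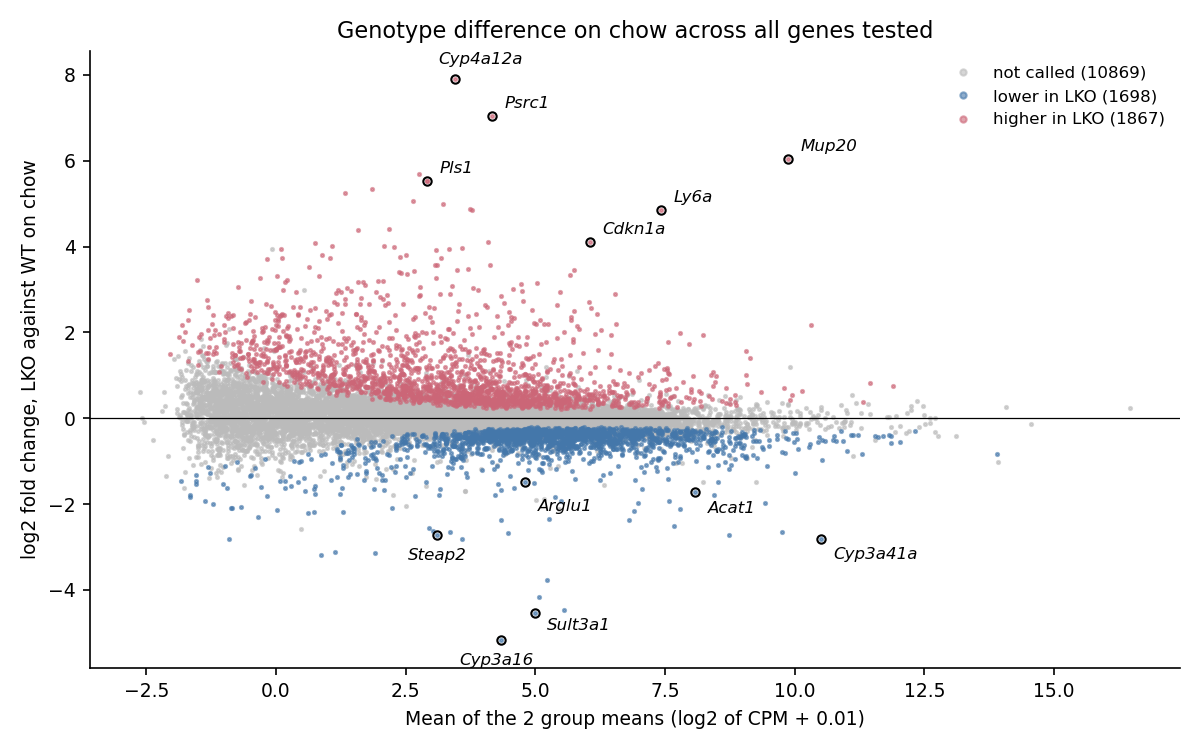
Genotype difference on chow for all 14434 genes tested, with the log2 of the mean of both group means (CPM + 0.01) on the horizontal axis and the fitted log2 fold change of LKO against WT on the vertical axis. Each point is 1 gene, red where higher (1867) and blue where lower (1698) in LKO at an adjusted p below 0.05, and circles mark the labelled genes. Rises reach 7.91 (Cyp4a12a) and falls -5.16 (Cyp3a16).

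The deposited counts table keeps only genes with reads in all 16 libraries, so genes switched on from 0 are absent from it and were read in a second table, without a test. Of 20593 such genes, 296 were higher in every LKO than in every WT chow library and 63 were lower. Avil, which encodes the actin-bundling protein advillin, had 3, 4, 1 and 5 counts in WT libraries 1 to 4 and 678, 568, 1298 and 787 in LKO libraries 1 to 4. Dnah5, an axonemal dynein heavy chain, had 2 counts in all 4 WT libraries together and 1106 in the 4 LKO libraries, and Dnah1, of the same family, had 17 and 310. Syt14, a synaptotagmin, had 7 and 334, and Alpk3, an atypical kinase of muscle, had 7 and 339. Sult3a2, a sulfotransferase, moved the other way with 87, 169, 163 and 52 counts in WT libraries and 3, 13, 0 and 1 in LKO libraries.

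**Figure D3:**
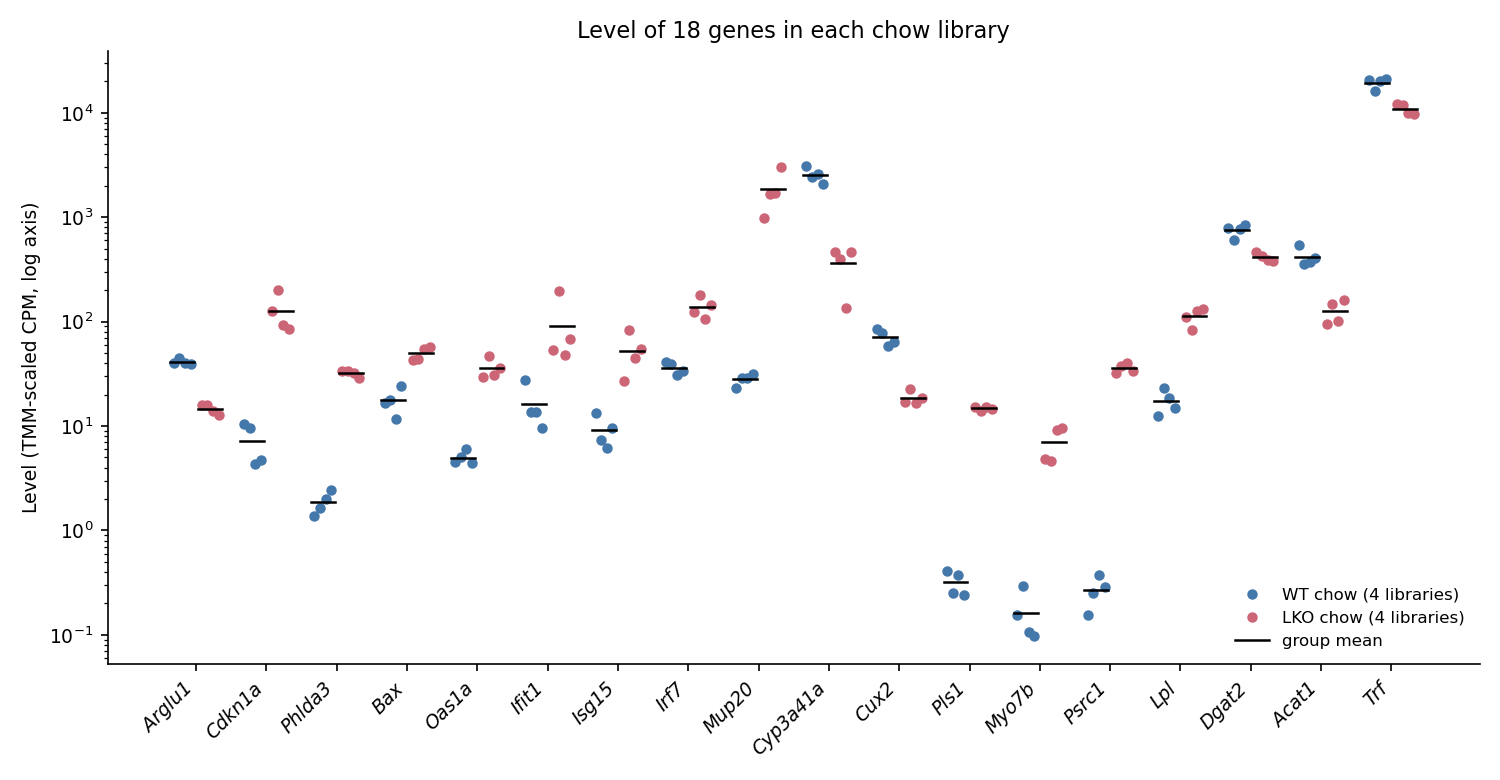
Level of 18 genes in each chow library, in TMM-scaled CPM on a log axis. Points are the 4 libraries of each genotype in the order 1 to 4 and bars are group means. Arglu1 is lower in all 4 LKO libraries (12.76 to 15.99 CPM) than in all 4 WT libraries (39.5 to 45.1 CPM), and none of the other genes shown overlaps between the genotypes.

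p53 is a transcription factor that DNA damage and other stress stabilise, and its targets halt the cell cycle, start cell death or repair DNA. Most arrest targets rose. Cdkn1a, the cyclin-dependent kinase inhibitor p21, stood at 10.5, 9.56, 4.304 and 4.68 CPM in WT libraries 1 to 4 and at 125, 199, 93.8 and 84.8 CPM in LKO libraries 1 to 4, which is 4.11 on the log2 scale (fitted, SE 0.37, adjusted p = 1.95e-06). The lowest LKO library was far above the highest WT library, with the highest value in LKO library 2. Of 12 arrest targets tested 8 rose and none fell (median log2 fold change 0.88, against 0.02 over all genes tested). They included the kinase Plk2 (1.90), the RNA-binding protein Zmat3 (1.78), the G2 regulator Gtse1 (2.45) and the mTORC1 inhibitor Sesn2 (0.79), whereas Gadd45a stood at -0.24 (adjusted p = 0.436).

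Regulators and targets of p53 beyond arrest split. Trp53 itself stood at 23.01 ± 1.34 in WT and 28.5 ± 5.32 CPM in LKO and was not called (adjusted p = 0.0623), but passed the test without LKO libraries 1 and 2, without LKO library 1 and without LKO library 2. Of 8 feedback and signalling genes 4 rose and 1 fell. Phlda3, an inhibitor of Akt, rose from 1.87 ± 0.469 to 32.2 ± 2.27 CPM (4.11, SE 0.17, adjusted p = 2.9e-11) and Mdm2, the ligase that degrades p53, rose by 0.68, while Mdm4, its partner inhibitor, fell by 0.47 (adjusted p = 0.00445). Of 14 cell death targets 5 rose and 1 fell. The receptor Eda2r rose by 3.97, the death receptor Tnfrsf10b by 1.88, the nuclease Aen by 1.41 and the pore-forming Bax by 1.49, while the membrane protein Perp fell by 0.46. Bbc3 and Pmaip1, which encode PUMA and NOXA, stood at 0.45 and -0.37 and were not called (adjusted p = 0.103 and 0.511). DNA repair targets held 3 rises and no fall among 10, with the translesion polymerase Polk at 1.39 and the nuclease Ercc5 at 0.45. Xpc and Ddb2, the damage sensors of nucleotide excision repair, stood at 0.03 and -0.09 and were not called (adjusted p = 0.885 and 0.774).

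Of 26 proliferation genes tested 2 rose and none fell, beside 12.9% of all genes higher and 11.8% lower. Those that rose were Ccnd1 (cyclin D1, 1.06) and the S-phase factor E2f1 (0.73), and Mki67 stood at -0.04 (adjusted p = 0.968). The count was 1 without LKO library 4, WT library 1 or WT library 3, each of which ended the call of E2f1. Nor was E2f1 called without LKO libraries 1 and 2, without LKO libraries 3 and 4 or by limma voom. Counts of p53 targets were close with either pair of LKO libraries left out. Arrest targets held 6 rises without LKO libraries 1 and 2 and 7 without 3 and 4, and death targets held 4 and 5. The mean log2 CPM of the arrest list was 4.05 and 4.05 in LKO libraries 1 and 2, 3.65 and 3.83 in libraries 3 and 4, and between 2.62 and 2.96 in WT.

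The promoter of Cdkn1a is shown because it was the single window among 36 genes of the 4 p53 lists that matched a p53 response element, a pair of consensus half-sites, against 0.074% of 27025 genes with a RefSeq promoter window (250 bases before to 50 after the start, GRCm38.p6). The stretch is chr17:29090881-29090962 on the plus strand, and capitals mark the match.
Cdkn1a: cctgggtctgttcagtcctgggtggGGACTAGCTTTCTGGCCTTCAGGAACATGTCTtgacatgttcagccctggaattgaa
A match describes letters in the window and is not evidence of binding.

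Type I interferon induces antiviral genes through interferon-stimulated response elements in their promoters. LKO livers held more transcript of nearly every effector. All 8 Oas genes, whose products sense double-stranded RNA, rose (median 1.73), and so did 18 of 19 Ifit and other effectors, with none lower (median 1.89). Ifit1, which binds foreign RNA caps, stood at 27.5, 13.6, 13.8 and 9.56 CPM in WT libraries 1 to 4 and at 53.7, 195, 48.3 and 68.6 CPM in LKO libraries 1 to 4 (2.51, SE 0.47, adjusted p = 0.0015). LKO library 2 was the highest by far, and the lowest LKO library was still above the highest WT library. The ubiquitin-like modifier Isg15 stood at 13.3, 7.42, 6.19 and 9.56 in WT and at 26.8, 83.6, 44.96 and 54.4 CPM in LKO (2.53, SE 0.39, adjusted p = 0.000299). Rsad2 (viperin) rose by 2.64, Ifi44 by 3.01, the sensor Zbp1 by 2.30 and Usp18, which removes ISG15 and restrains the receptor, by 2.21. Isg20 was the member that was not called (-0.15, adjusted p = 0.727). The effector count was 18 in every alternative run, and the Oas count was 7 without LKO libraries 1 and 2 and 8 without 3 and 4.

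Other groups of interferon genes held fewer calls. Among interferon-inducible GTPases, which attack the vacuoles of intracellular pathogens, 9 of 14 rose and none fell (median 0.81). Tgtp1 rose by 1.74 and Gbp6 by 1.60, whereas Gbp2 stood at 13.9, 9.47, 8.66 and 7.97 in WT and 14.1, 9.87, 8.02 and 7.88 CPM in LKO (adjusted p = 0.999) and Gbp5 at -0.11 (adjusted p = 0.615). The genotypes overlapped fully for Gbp2. Of 17 interferon regulatory factors, STATs, receptors and kinases 6 rose and 3 fell, with 4 rises and 4 falls without LKO libraries 1 and 2 and 5 and 1 without 3 and 4. The master regulator Irf7 stood at 40.7, 39.7, 30.7 and 33.6 in WT and 124, 181, 105 and 145 CPM in LKO (1.94, SE 0.21, adjusted p = 4.99e-06), without overlap. The receptor chain Ifnar2 fell by 0.48. Irf1 stood at 0.16 (adjusted p = 0.226). Of 15 nucleic acid sensors 4 rose and 1 fell, the signalling adaptor Mavs (-0.65, adjusted p = 0.000922).

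Antigen presentation by MHC class I was mixed, with 6 of 16 genes higher and 3 lower. B2m, the invariant light chain, stood at 1402, 1203, 1259 and 1419 in WT and 1200, 1102, 1438 and 1592 CPM in LKO (adjusted p = 0.952), and the heavy chain H2-K1 fell by 0.43 (adjusted p = 0.00773) while H2-T23 rose by 0.60. MHC heavy chains and several Oas genes are near-identical copies whose reads may be misassigned. GTPases held 7 rises without LKO libraries 1 and 2 and 12 without 3 and 4. Sensor rises were 1 and 7 in the same fits, 1 without LKO library 2 or WT library 4 and 2 without WT library 2, and MHC rises were 3 without WT library 3. The mean log2 CPM of the GTPases was highest in LKO library 2, at 5.80 (4.95 to 5.49 in the other LKO libraries and 4.38 to 4.91 in WT). On the same scale nucleic acid sensors stood at 3.72 and 4.04 in LKO libraries 1 and 2. LKO libraries 3 and 4, at 3.25 and 3.39, lay inside the WT range of 3.02 to 3.44. Kupffer cell, neutrophil and endothelial marker lists held no called gene, but the endothelial list was likewise higher in LKO libraries 1 and 2, at 5.14 and 4.91 against 3.97 and 3.92 in libraries 3 and 4 (3.93 to 5.03 in WT), and so was the Kupffer cell list, at 5.14 and 4.87 against 3.01 and 3.78 (3.92 to 5.27 in WT). Their part in the interferon values was not tested.

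Promoter sequences are shown for interferon genes of both kinds, those that rose and those that did not, because they hold the same element. A core of the interferon-stimulated response element, GAAA followed by any 2 bases and GAAA again, was searched on both strands of the RefSeq windows (GRCm38.p6), where matches may overlap one another. It was present in 3.99% of 27025 genes with a window, in 11 of the 18 Oas and effector genes with a window (61.1%) and in 9 of 10 GTPases (90%). Capitals mark the matches, and each stretch is read 5′ to 3′ on the strand of its gene. Ifit1 is chr19:34640760-34640838 (plus strand), Isg15 chr4:156200850-156200921 (minus), Rsad2 chr12:26456538-26456597 (minus), Tgtp1 chr11:48992289-48992348 (minus), Gbp3 chr3:142559974-142560039 (plus), Gbp2 chr3:142620579-142620638 (plus) and Gbp5 chr3:142496744-142496803 (plus).
Ifit1 (rose): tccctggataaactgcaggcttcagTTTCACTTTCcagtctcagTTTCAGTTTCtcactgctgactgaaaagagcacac
Isg15 (rose): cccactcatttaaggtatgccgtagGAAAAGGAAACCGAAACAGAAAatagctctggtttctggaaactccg
Rsad2 (rose): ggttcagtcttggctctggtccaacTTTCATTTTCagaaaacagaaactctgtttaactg
Tgtp1 (rose): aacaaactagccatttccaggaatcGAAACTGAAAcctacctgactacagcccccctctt
Gbp3 (rose): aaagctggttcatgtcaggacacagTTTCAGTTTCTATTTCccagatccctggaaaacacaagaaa
Gbp2 (not called): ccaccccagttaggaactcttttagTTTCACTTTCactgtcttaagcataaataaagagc
Gbp5 (not called): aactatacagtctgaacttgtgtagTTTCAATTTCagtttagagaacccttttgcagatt
The element was thus present in the windows of Gbp2 and Gbp5, which were not called, as well as in those of genes that rose. Among genes called higher in LKO 5.85% of 1402 windows held it, and among genes called lower 3.4% of 1323.

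Sex differences of the rodent liver are set by the pattern of growth hormone release, pulsatile in males and near-continuous in females, acting through STAT5 and the female-biased repressor CUX2 and the male-biased repressor BCL6. All mice here were female. Of 17 male-biased genes 12 rose and 1 fell (median 1.47), and of 28 female-biased genes 19 fell and 2 rose (median -1.73). Mup20, the male urinary pheromone darcin, stood at 22.97, 28.7, 29.1 and 31.2 in WT and 975, 1662, 1709 and 3038 CPM in LKO (6.04, SE 0.47, adjusted p = 4.95e-07). Cyp3a41a, a female-specific cytochrome, stood at 3113, 2413, 2586 and 2066 in WT and 463, 395, 136 and 462 CPM in LKO (-2.80, SE 0.36, adjusted p = 6.12e-05). Neither overlapped, and LKO library 3 was the lowest for Cyp3a41a. The largest rise of all genes named by the rule was that of the male-specific Cyp4a12a (7.91, from 0.0864 ± 0.0505 to 21.8 ± 9.55 CPM) and the largest fall that of the female-biased Cyp3a16 (-5.16, from 39.6 ± 35.8 to 1.07 ± 0.661 CPM). These 4 genes are members of families of near-identical copies (Mup, Cyp3a and Cyp4a), and the Cyp2 and Sult families hold such copies too. Reads may be shared between such genes, and how far each one changed is uncertain.

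Of other male-biased genes Susd4, a complement regulator, rose by 2.94, the elongase Elovl3 by 1.54 and the fatty acid hydroxylase Cyp2u1 by 2.50. Female-biased Cux2 stood at 84.7, 78.04, 57.9 and 64.4 in WT and 16.9, 22.7, 16.8 and 18.6 CPM in LKO (-1.93, SE 0.29, adjusted p = 0.000217) and did not overlap. The steroid hydroxylase Cyp17a1 fell by 1.98. The 2 female-biased genes that rose were Cyp2b10, a target of the receptor CAR (1.37), and the proton pump subunit Atp6v0d2 (1.60). The highest value of the female-biased list, 2.996, was that of a gene that was not called. Cyp2a4 and Cyp4a14 stood at -0.02 and 0.01 and were not called (adjusted p = 0.964 and 0.983). Female-biased falls numbered 19 without LKO libraries 1 and 2 and 12 without 3 and 4, and male-biased rises 13 and 10.

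Growth hormone signalling genes held 2 rises and 8 falls among 22. The receptor Ghr fell from 473 ± 65.9 to 310 ± 22.8 CPM (-0.61, SE 0.10, adjusted p = 0.00028), while its secreted product Igf1 stood at 489 ± 61.6 in WT and 412 ± 68.95 CPM in LKO (adjusted p = 0.281). Stat5b (-0.18, adjusted p = 0.402) and Bcl6 (-0.22, adjusted p = 0.745) were not called, but Stat5b passed the test without LKO libraries 1 and 2 and Bcl6 without LKO library 1. The binding protein Igfbp2 rose by 1.57 and the leptin receptor Lepr by 1.45. Falls numbered 11 without LKO libraries 1 and 2, 3 without 3 and 4 and 5 without LKO library 4. The letters TTCNNNGAA of a STAT5 site, searched on both strands, were in 5 of 20 female-biased windows (25%) and in none of 10 male-biased windows, against 9.55% of all windows. They were not particular to sex-biased genes, with 6 of 10 GTPase windows (60%) and 5 of 18 Oas and effector windows (27.8%) holding them. Genes called higher in LKO held them in 7.7% of windows and genes called lower in 9.3%, against 8.5% of tested genes with a window.

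**Figure D4:**
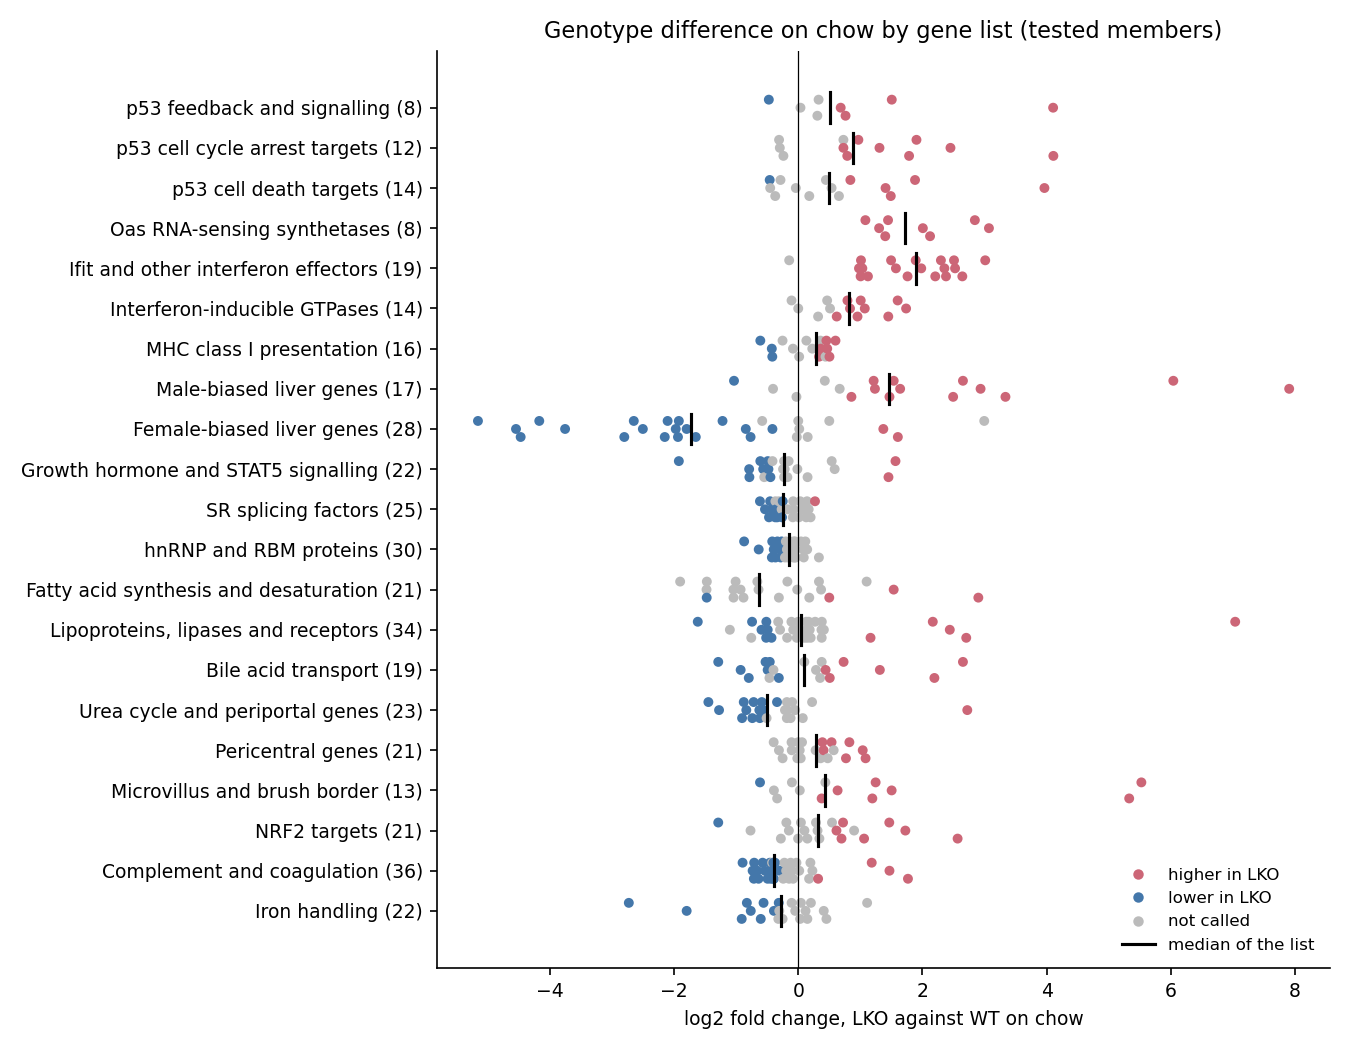
Fitted log2 fold change of LKO against WT on chow for the tested members of 21 gene lists, 1 point a gene and the number tested in brackets. Red genes were called higher and blue genes lower in LKO, grey genes were not called, and the black bar is the list's median. Oas genes lie wholly to the right (median 1.73), most female-biased genes lie to the left (median -1.73), and splicing factors lie close to 0 (median -0.25).

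RNA processing is one of the known functions of ARGLU1, and genes of the splicing machinery changed little in size. Of 25 SR and SR-related factors, which bind exonic enhancers, 10 fell and 1 rose (median -0.25). The coactivator Srrm1 stood at 62.2, 69.3, 70.3 and 56.1 in WT and 47.5, 46.4, 37.5 and 36.6 CPM in LKO (-0.62, SE 0.11, adjusted p = 0.000549), without overlap. Srsf2 fell by 0.54, Srsf3 (-0.43) and Srsf5 (-0.45), whereas Tra2b, Son and Srsf10 stood at -0.17, 0.01 and -0.07 and were not called (adjusted p = 0.193, 0.97 and 0.534). Of 30 hnRNP and RBM proteins 11 fell and none rose. Hnrnpa3, which packages nascent transcripts, stood at 171, 164, 197 and 173 in WT and 82.2, 98.4, 86.8 and 118 CPM in LKO (-0.87, SE 0.12, adjusted p = 4.99e-05), and the alternative splicing regulator Rbm5 fell by 0.64.

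The kinases that phosphorylate SR proteins held 2 falls among 10, beside 11.8% of all genes lower. Clk1 stood at 60.6, 67.7, 71.2 and 66.5 in WT and 35.7, 29.9, 48.8 and 56.3 CPM in LKO (-0.64, SE 0.15, adjusted p = 0.0057). The 2 lowest values were those of LKO libraries 1 and 2, and Clk1 did not overlap between the genotypes. The mean log2 CPM of the SR list was 5.76 and 5.77 in LKO libraries 1 and 2, 5.97 and 6.02 in libraries 3 and 4, and 6.03 to 6.13 in WT. SR falls numbered 6 without LKO libraries 1 and 2 and 11 without 3 and 4, and hnRNP falls 8 and 11. The core spliceosome held 2 rises and 5 falls among 30, a number called that is near the share of all genes (24.7%). Its falls were 3 without LKO library 3 or WT library 3 and 2 without LKO library 4, and its rises 1 without LKO library 3, WT library 1 or WT library 2. Without LKO libraries 1 and 2 it held 7 rises and 7 falls, and without 3 and 4 no rise and 1 fall.

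ARGLU1 is known to work with nuclear receptors and the Mediator complex. Mediator held 2 rises and 3 falls among 32, beside 12.9% of all genes higher and 11.8% lower, with Med1, the subunit that nuclear receptors contact, at 0.20 (adjusted p = 0.0668) and Med12l, a paralogue of the kinase module, at -1.30. Without LKO libraries 3 and 4 it held no rise and 2 falls, and without WT library 1 it held 5 falls. Its rises were 1 without LKO library 2, LKO library 3, WT library 2, WT library 3 or WT library 4. Glucocorticoid receptor genes held no rise and 2 falls among 20, and the list's highest log2 fold change, 2.996, was not called. The receptor Nr3c1 stood at -0.38 (adjusted p = 0.114) but passed the test without LKO library 1 or without both LKO libraries 1 and 2, and its classical targets Tsc22d3 and Fkbp5 were not called (adjusted p = 0.917 and 0.26), Fkbp5 passing the test without LKO library 2 or without LKO libraries 1 and 2. Tat, the tyrosine aminotransferase that glucocorticoids induce, stood at 1175, 1296, 1670 and 1670 in WT and 605, 510, 546 and 737 CPM in LKO (-1.28, SE 0.22, adjusted p = 0.000533) and did not overlap. The list's falls were 1 without LKO library 3, WT library 1 or WT library 4, and it held 2 rises without LKO libraries 3 and 4.

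Nuclear receptors themselves held 7 rises and 5 falls among 34, beside the same shares of all genes. The retinoic acid receptor Rarg rose from 6.67 ± 1.25 to 17.5 ± 3.54 CPM (1.38, SE 0.17, adjusted p = 1.49e-05) and the thyroid hormone receptor Thra by 0.52, while the xenobiotic receptor Nr1i2 fell by 0.66. Falls were 3 without LKO library 3, WT library 3 or LKO libraries 3 and 4, and 9 without LKO libraries 1 and 2. Factors that keep hepatocyte identity held 3 rises and 5 falls among 19. Foxa3 rose by 0.82 and Onecut2 fell by 0.57, while Foxa2 stood at -0.09 and was not called (adjusted p = 0.785). Its falls were 3 without WT library 4.

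Of 18 triglyceride assembly genes 3 rose and 3 fell, close to the shares of all genes (12.9% higher and 11.8% lower). The acyltransferase Mogat1 rose from 0.997 ± 0.384 to 10.5 ± 3.56 CPM (3.36, SE 0.31, adjusted p = 8.18e-07). Dgat2, the main enzyme of the last step in liver, stood at 784, 608, 770 and 849 in WT and 461, 423, 393 and 383 CPM in LKO (-0.86, SE 0.13, adjusted p = 0.000117), without overlap. Lipid droplet proteins held 3 rises and no fall among 16, with Cidec, a droplet fusion protein, at 2.097, 3.23, 2.31 and 2.08 in WT and 5.02, 26.8, 19.9 and 20.6 CPM in LKO, lowest in LKO library 1 (2.88, SE 0.41, adjusted p = 0.000158). Of 34 genes for lipoproteins, lipases and receptors 5 rose and 7 fell. The spindle protein gene Psrc1 was a member of this list and 1 of its rises. Lpl, a lipase of which adult liver holds little, stood at 12.4, 23.1, 18.7 and 15.02 in WT and 111, 83.3, 127 and 132 CPM in LKO (2.71, SE 0.22, adjusted p = 1.96e-07), and Apoa4, an apolipoprotein that rises with hepatic lipid load, rose by 2.17. The lipoprotein receptor Vldlr fell by 1.62. Triglyceride falls were 5 without LKO library 2.

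Fatty acid synthesis and desaturation had a median of -0.64 over 21 genes with 3 rises and 1 fall. Of all genes 24.7% were called. Fasn, fatty acid synthase, stood at 810, 1938, 5376 and 3408 in WT and 2222, 678, 1798 and 1555 CPM in LKO (adjusted p = 0.297). WT libraries 1 and 2 lay inside the LKO range and WT libraries 3 and 4 above it. The desaturase Scd1 stood at 5126, 24450, 28830 and 23860 in WT and 17170, 6251, 9796 and 7640 CPM in LKO (adjusted p = 0.097), with WT library 1 below every LKO library. Scd1 passed the test without WT library 1 or LKO library 1. Falls in this list were 6 without WT library 1, 5 without LKO library 1 and 2 without WT library 2. Its rises were led by Fads3, a desaturase family member, at 28.9, 23.7, 19.7 and 15.2 in WT and 70.6, 84.5, 253 and 246 CPM in LKO (2.90, SE 0.42, adjusted p = 0.000193). LKO libraries 3 and 4 were the highest for Fads3 and all LKO libraries were above all WT libraries. Cholesterol synthesis held 1 rise and 6 falls among 27 (median -0.30), a number called that is near the share of all genes. Its falls were 3 without LKO library 1, 2 without LKO library 4 or WT library 3, 1 without WT library 4, 3 without LKO libraries 1 and 2 and 2 without 3 and 4.

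Oxidation of fatty acids held 4 rises and 4 falls among 30, close to the 12.9% higher and 11.8% lower of all genes. Falls were 8 without LKO library 2 and 2 without LKO library 3, LKO library 4 or WT library 1, and rises 2 without LKO library 2, LKO library 3, WT library 3 or WT library 4. Cpt1a, the gatekeeper of mitochondrial import, stood at -0.15 (adjusted p = 0.703). Acat1, the mitochondrial thiolase of ketone body and isoleucine metabolism, had the largest fall of the list. It stood at 539, 357, 369 and 403 in WT and 95.1, 147, 101 and 162 CPM in LKO (-1.73, SE 0.19, adjusted p = 6.72e-06). Pcca and Mccc2 were chosen after their values were seen. Pcca, a propionyl-CoA carboxylase subunit, stood at 81.3, 78.1, 77.3 and 79.9 in WT and 28.9, 26.6, 30.5 and 33.1 CPM in LKO (-1.41, SE 0.09, adjusted p = 8.03e-09), and Mccc2, of leucine breakdown, fell by 1.03 (SE 0.08, adjusted p = 1.13e-07). For Acat1, Pcca and Mccc2 all LKO libraries were below all WT libraries.

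Bile acid transport changed in both directions. Of 19 transporters 6 rose and 7 fell. The sodium-dependent importer Slc10a1 (NTCP) stood at 725, 659, 756 and 655 in WT and 338, 326, 361 and 443 CPM in LKO (-0.93, SE 0.11, adjusted p = 6.91e-06), without overlap. The importer Slco1b2 fell by 0.80 and the canalicular export pump Abcb11 (-0.46). The organic anion carrier Slc22a7 rose from 13.6 ± 5.98 to 62.03 ± 16.3 CPM (2.19), and Slc10a2, the ileal-type importer, by 1.31. Synthesis held 2 rises and 5 falls among 17. Cyp7a1, the rate-limiting enzyme, stood at 0.57 and Cyp8b1, which sets the ratio of cholic acid, at -0.81, neither called (adjusted p = 0.165 and 0.076), while Cyp7b1 of the alternative pathway rose by 0.86 and Cyp39a1 fell by 1.02. The receptors Nr1h4 (FXR) and Nr0b2 (SHP) stood at -0.10 and 0.16 and were not called (adjusted p = 0.528 and 0.621), but Klb, the co-receptor for FGF15, fell from 47.9 ± 7.36 to 22.99 ± 7.53 CPM (-1.05, SE 0.19, adjusted p = 0.000835). Synthesis falls were 3 without LKO library 3, WT library 1, WT library 3 or WT library 4, and its rises 1 without LKO library 2 or WT library 3. Sensing genes held 4 falls among 7, and 1 without LKO libraries 3 and 4.

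Liver zonation places urea synthesis, gluconeogenesis and amino acid breakdown near the portal vein and glutamine synthesis and drug oxidation near the central vein. Of 23 periportal genes 12 fell and 1 rose (median -0.51), and of 21 pericentral genes 7 rose and none fell (median 0.28). Uroc1, of histidine breakdown, stood at 676, 674, 683 and 704 in WT and 380, 301, 406 and 374 CPM in LKO (-0.91, SE 0.10, adjusted p = 2.5e-06), without overlap. The glycine cleavage enzyme Gldc fell by 0.88, the glutaminase Gls2 (-0.74) and the urea cycle enzyme Otc (-0.72). The exception was Cdh1, E-cadherin, which stood at 6.45, 9.64, 7.37 and 5.22 in WT and 55.1, 62.99, 40.95 and 30.7 CPM in LKO (2.72, SE 0.24, adjusted p = 8.42e-07). Of pericentral genes the carboxylate transporter Slc13a3 rose by 1.08 and the amino acid transporter Slc1a4 by 1.04, while the defining genes Glul, Cyp2e1 and Oat stood at -0.11, 0.28 and 0.02 and were not called (adjusted p = 0.599, 0.411 and 0.968). Periportal falls were 11 without LKO libraries 1 and 2 and 10 without 3 and 4. Pericentral rises were 7 and 4 in those fits and 4 without WT library 3 or WT library 4.

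Glucose metabolism held 1 rise and 8 falls among 29, with 11 falls without LKO libraries 1 and 2 and 6 without 3 and 4. Fbp1, a gluconeogenic phosphatase, fell by 0.78, the glucose transporter Slc2a2 (-0.53) and the glycogen phosphorylase Pygl (-0.69), whereas Pck1 stood at -0.18 (adjusted p = 0.661). Drug metabolism was divided, with 9 rises and 8 falls among 42. Cyp2c55 rose by 1.98, the carboxylesterase Ces2c by 1.78 and the sulfotransferase Sult5a1 by 1.59, and Ces2a fell by 1.08 and Cyp2c37 (-1.10). These genes have close copies as well. Rises were 13 without LKO libraries 1 and 2 and 5 without 3 and 4.

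The microvillus is the actin-filled protrusion that hepatocytes carry at the bile canaliculus and the gut and kidney carry as a brush border. Of 13 microvillus genes tested 7 rose and 1 fell. A further 5 members of the list, Vil1, Myo1a, Ush1c, Cdhr2 and Clrn3, were not tested. Pls1, an actin bundler, stood at 0.409, 0.252, 0.377 and 0.241 in WT and 15.4, 13.99, 15.3 and 14.6 CPM in LKO (5.53, SE 0.39, adjusted p = 5.54e-08). Myo7b, the brush border myosin, stood at 0.153, 0.293, 0.108 and 0.0966 in WT and 4.802, 4.63, 9.06 and 9.56 CPM in LKO (5.33, SE 0.36, adjusted p = 1.85e-08). Neither overlapped, and both were barely detected in WT. The bundler Espn rose by 1.504, the capping protein Eps8 by 1.25 and the protocadherin Cdhr5 by 0.63, while ezrin (Ezr) stood at -0.34 (adjusted p = 0.181). The count of 7 rises held in every alternative run, and falls were 2 without LKO library 1 or LKO library 2. Of 8 bile duct markers tested 1 rose, with all LKO libraries above all WT libraries, and none fell. Krt19, Krt7 and Epcam of this list stood at 0.81, 0.23 and -0.26 and were not called (adjusted p = 0.244, 0.662 and 0.644). Cilia and axoneme genes held 5 rises and 3 falls among 24 tested (3 rises without WT library 3), with the radial spoke gene Rsph4a at -3.18. A further 13 members of that list were not tested. Among them were Dnah5 and Dnah1, whose counts were higher in every LKO than in every WT library. Epithelial adhesion held 1 rise and 6 falls among 24, with 1 fall without LKO libraries 3 and 4 and 9 without 1 and 2. It held 3 rises without LKO library 1 or LKO library 2.

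NRF2 targets, which answer oxidative stress, rose in 7 of 21 and fell in 1. Osgin1 stood at 99.2, 131, 107 and 128 in WT and 394, 377, 425 and 346 CPM in LKO (1.73, SE 0.13, adjusted p = 4.02e-08), without overlap, and the sulfiredoxin Srxn1 rose by 1.06 and Nfe2l2, NRF2 itself, by 0.61. Gclc and Hmox1 stood at 0.10 and -0.28 and were not called (adjusted p = 0.604 and 0.486), Hmox1 passing the test without LKO libraries 1 and 2. Integrated stress response genes rose in 7 of 23 and fell in 1, with the hormone Gdf15 at 1.99, the pseudokinase Trib3 at 1.07 and Ddit3 (CHOP) at 0.69. Atf4 stood at -0.02 (adjusted p = 0.929). Rises were 9 without LKO libraries 1 and 2 and 4 without 3 and 4. Unfolded protein response genes held no rise and 3 falls among 22, a count that was 10 without LKO library 2 or without LKO libraries 1 and 2 and 1 without LKO library 3, LKO library 4, WT library 3 or WT library 4. Circadian genes held 4 falls among 18, 6 without LKO libraries 1 and 2, 8 without 3 and 4 and 2 without LKO library 3, WT library 1 or WT library 4.

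Secreted liver proteins were more often lower than higher. Complement and coagulation genes fell in 19 of 36 and rose in 4 (median -0.38), against 11.8% of all genes lower. The coagulation factors F7, F11 and F12 fell (-0.71, -0.74 and -0.72), and so did the terminal complement component C9 (-0.90). C8a, of the same membrane attack complex, went the other way, with 82.3, 103, 82.5 and 73.99 in WT and 262, 386, 257 and 258 CPM in LKO (1.77, SE 0.21, adjusted p = 1.65e-05). LKO library 2 was the highest for C8a and the genotypes did not overlap. Acute phase proteins held 1 rise and 10 falls among 24, with Lbp at -1.27 and Itih4 at -0.77, and with 6 falls without LKO library 3. Complement and coagulation falls numbered 20 without LKO libraries 1 and 2 and 13 without 3 and 4, and acute phase falls 10 and 5.

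Of 22 iron genes 9 fell and none rose. Trf, the plasma iron carrier transferrin, stood at 20550, 16200, 20110 and 21280 in WT and 12250, 12010, 10060 and 9677 CPM in LKO (-0.83, SE 0.12, adjusted p = 6.8e-05). Its sensor Tfr2 stood at 484, 461, 415 and 474 in WT and 258, 284, 272 and 264 CPM in LKO (-0.77, SE 0.08, adjusted p = 3.98e-06), and neither overlapped. The importer Slc39a14 fell by 0.91, the hepcidin co-receptor Hjv (-0.56) and the metalloreductase Steap2 (-2.73). Hamp, which encodes hepcidin, stood at 0.03 (adjusted p = 0.957). Falls were 11 without LKO libraries 1 and 2 and 7 without 3 and 4.

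Markers of cell types were read beside these results, with 12.9% of all genes called higher and 11.8% called lower. Hepatocyte markers held 3 falls among 12, with Alb at 0.24 (adjusted p = 0.128), and summed to 144600 to 152100 CPM in LKO and 121300 to 161200 CPM in WT. None of 10 Kupffer cell, 4 neutrophil, 13 endothelial and 13 stellate cell markers was called, although stellate cell markers held 2 rises without WT library 3. Endothelial markers summed to 299 to 686 CPM in LKO and 287 to 621 CPM in WT, and stellate cell markers to 263 to 397 CPM and 228 to 370 CPM. Neutrophil markers summed to 5.19 to 11.2 CPM in LKO and 6.08 to 9.68 CPM in WT, and the defining genes Ly6g, Retnlg and Mpo were too low to test. Kupffer markers summed to 127 to 564 CPM in LKO and 251 to 595 CPM in WT. B and plasma cell markers held 4 falls and no rise among 14, none of them without LKO libraries 3 and 4. Igkc, the antibody kappa chain, stood at 87.4, 78.7, 79.95 and 12.3 in WT and 8.59, 26.6, 8.56 and 6.41 CPM in LKO (-2.35, adjusted p = 0.0123). WT library 4 lay between LKO library 2 and the other LKO libraries. Macrophage markers held 2 rises among 14, and 1 without LKO library 1, 3 or 4 or WT library 2, 3 or 4, and T and NK cell markers held 1 among 11, the perforin gene Prf1 (2.04). Mitochondrially encoded genes summed to 47740 to 86550 CPM in LKO and 65860 to 78170 CPM in WT, held 2 falls among 13, and held 10 falls without LKO libraries 3 and 4, 5 falls without LKO library 4, 1 fall without LKO library 1 or WT library 3 and 3 rises without LKO libraries 1 and 2. The part of these lists in the genotype differences was not tested.

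**Figure D5:**
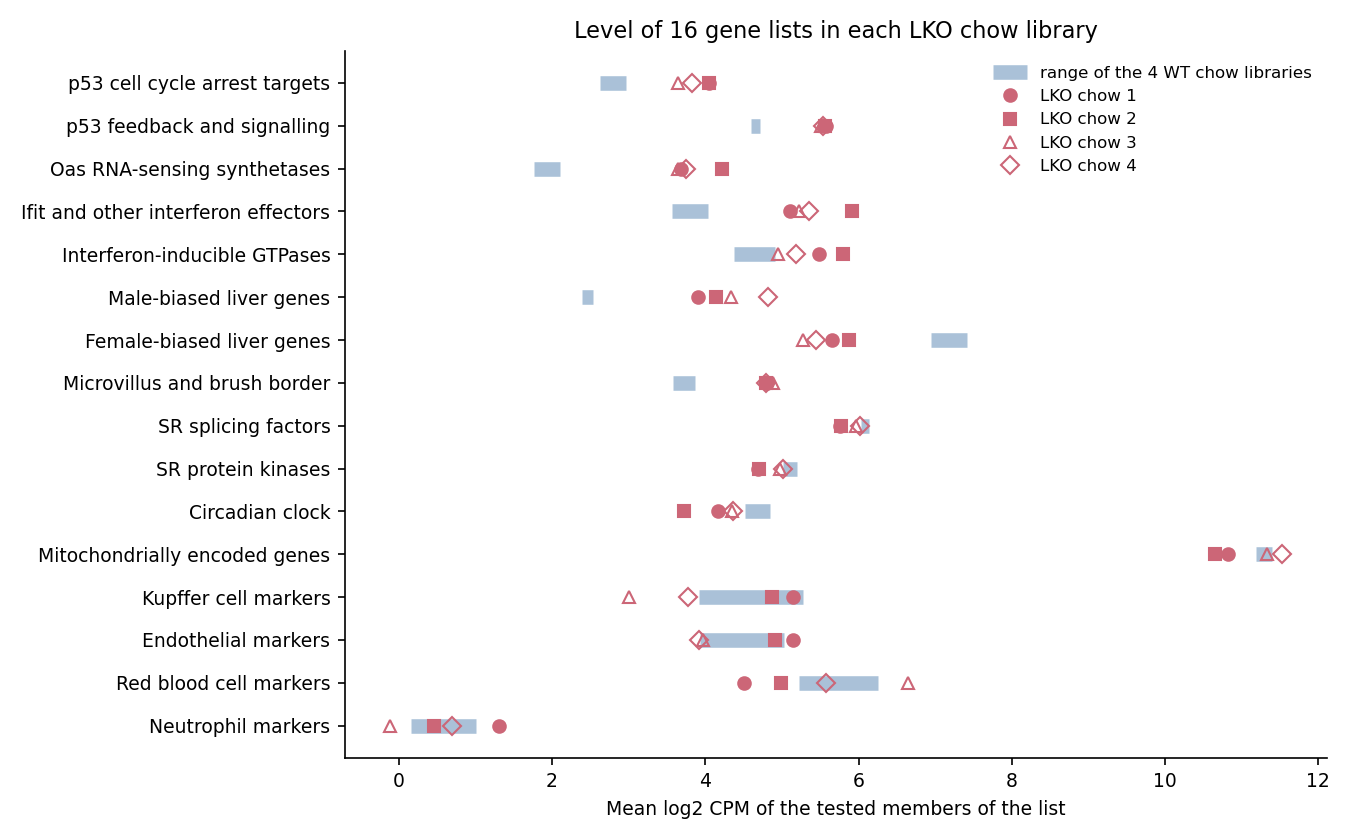
Mean log2 CPM of the tested members of 16 gene lists, with a symbol for each of the 4 LKO chow libraries and a bar for the range of the 4 WT chow libraries. For p53, interferon effector, sex-biased and microvillus lists all 4 LKO symbols lie outside the WT bar on 1 side. For Kupffer cell markers LKO libraries 3 and 4 (3.01 and 3.78) lie below the WT range and libraries 1 and 2 (5.14 and 4.87) inside it.

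Whether the genotype difference depended on diet was tested as the difference between the chow and HFD effects, fitted over all 16 libraries. It was called for 3 genes (0.0208%) by edgeR, for 53 by DESeq2 and for 16 by limma voom, and 1263 genes had an unadjusted edgeR p below 0.05. Adam11, a membrane protein of the disintegrin family, stood at 15.7, 13.6, 21.7 and 19.1 in WT and 111, 53.1, 95.3 and 80.9 CPM in LKO on chow, a log2 fold change of 2.28, against 0.62 on HFD (difference -1.66, adjusted p = 0.0413). Lepr, the leptin receptor, stood at 1.45 on chow and -0.31 on HFD (difference -1.76, adjusted p = 0.0413), and Ppp4r4, a phosphatase regulator, at 0.09 and 0.90 (difference 0.81, adjusted p = 0.0413). The count was 1264 without LKO chow libraries 1 and 2 and 2 without LKO chow libraries 3 and 4. It was 9 without LKO chow library 1 and 1 without LKO chow library 2 or WT chow library 3. Without LKO chow library 4 or WT chow library 1, 2 or 4 it was 0. Genes not called by this test were not shown to change alike on both diets. Female-biased falls numbered 19 on chow and 9 on HFD, and SR falls 10 and 16.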

How the data were processed

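RNA of 16 liver libraries from female mice was sequenced after poly(A) enrichment, per the labels' protocols. The authors deposited estimated counts per gene, and the submitters' processing notes name mm10, Bowtie2 and DESeq2 without versions. The counting tool, annotation and strand setting are not given in the sources used here. The counts table holds 15119 genes. A second table of 35712 genes, whose name says RPKM, carries identical estimated counts with its chow columns 1 row out of place, and the first table keeps just those of its genes with reads in every library. It was moved back by 1 row, after which 15119 genes matched to a relative tolerance of 1e-06, and was used without a test for genes absent from the first.

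Estimated counts were rounded and scaled by TMM. edgeR 4.0.16 (R 4.3.3) fitted a quasi-likelihood model with 1 mean for each of the 4 genotype and diet groups over all 16 libraries, after its filter on low counts (14434 genes). Genes with an adjusted p below 0.05 (Benjamini-Hochberg over all genes) were called, and every adjusted p in the text is edgeR's unless another tool is named. Alternatives used DESeq2 1.42.0, limma 3.58.1 voom, other scalings and filters, the 8 chow libraries alone, and libraries left out. On simulated counts of 14334 genes for the chow comparison the model recovered 67.7% of 99 genes changed 2-fold and 93% of 100 changed 4-fold, with 7 false calls. Coordinates come from GENCODE M21 (14532 of 15119 symbols matched) and promoters from RefSeq (10924 of 14434 genes tested).

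Same-numbered libraries were not treated as pairs. Of 24 same-numbered pairs over all groups 5 had deviations correlated above 0.1 (median -0.0178). Of the 4 pairs of WT chow with LKO chow 2 did (median 0.0988, range -0.275 to 0.235). Members and gene lists were chosen with earlier results of these data known. Named genes are Arglu1, the 15 largest non-overlapping rises and falls whose higher group averages at least 1 CPM, the key members of each list and up to 5 of its lowest p-values, up to 8 interaction calls, up to 10 genes absent from the counts table and up to 8 loadings, and the text names fewer. List members named outside that rule were chosen after their values were seen: Atp6v0d2, Bbc3, Bcl6, Ces2c, Cyp17a1, Cyp2a4, Cyp2b10, Cyp2c37, Cyp2c55, Cyp4a14, Ddb2, Eps8, F11, Foxa2, Gadd45a, Gbp3, Gbp5, Gclc, Gls2, Hjv, Hmox1, Irf1, Isg20, Krt7, Oat, Pmaip1, Rsad2, Slc2a2, Slco1b2, Son, Srsf10, Sult5a1, Susd4, Tgtp1, Tra2b, Tsc22d3 and Xpc. A few genes are not reported here.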

Additional observations from a re-analysis of the deposited data

Results flagged for a closer look

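In 354 groups of 4 libraries, 19 held 1 library far from the other 3 by Dixon's ratio of gap to range. Chance alone gives about 1 in 20 such groups. In LKO, replicate 2 was the highest for Ifit1 at 195.2 CPM (53.7 CPM in replicate 1), C8a at 385.7 CPM (262 CPM in replicate 1) and Igkc at 26.64 CPM. Replicate 1 was the highest for Bbc3 at 29.91 CPM and Pygl at 456.7 CPM and the lowest for Glul at 724.5 CPM. Replicate 3 was the highest for Epcam at 1.959 CPM and replicate 4 for Hamp at 1189 CPM and Cyp4a12a at 36.09 CPM.

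In WT, replicate 4 was the highest for Ces2a at 232.4 CPM, Gadd45a at 14.83 CPM and Isg20 at 4.54 CPM, and the lowest for Igkc at 12.27 CPM and Onecut2 at 117.0 CPM. Replicate 2 was the highest for Arglu1 at 45.1 CPM and Slc39a14 at 362.8 CPM and the lowest for Cyp7b1 at 15.55 CPM. Replicate 1 was the highest for Slc22a7 at 22.46 CPM and Cyp3a16 at 92.54 CPM.

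The genotype effect differed between the diets for 3 genes by the interaction test. The effect on HFD minus that on chow was -1.66 for Adam11, -1.76 for Lepr and 0.81 for Ppp4r4 on the log2 scale.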

How the results depend on the processing

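Of 127 named genes called on chow, 125 stayed called in the same direction under all 19 alternatives that tested them, and E2f1 and Igkc did not. No named gene reversed. The count of 3565 called genes was 2373 without LKO chow libraries 3 and 4, 2152 in the 8 chow libraries alone and 905 with a 2-fold minimum (743 higher, 162 lower), and it ranged from 2698 to 3919 with 1 library left out. Genes lower in LKO numbered 2623 without LKO chow libraries 1 and 2, 1061 without 3 and 4 and 899 in the chow libraries alone. The share of called genes that were higher ran from 47.9% to 60.2% over all alternatives (52.4% as reported). The fits without LKO libraries 1 and 2, without 3 and 4, and on the moved second table were chosen after seeing the data, and the cause of these shifts was not tested.

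The difference between diets was called for 3 genes, 53 by DESeq2, 16 by limma voom, 1264 without LKO chow libraries 1 and 2, and 0 by edgeR with a mean count of at least 50 (1096 at an unadjusted p below 0.05). With 1 library left out it ranged from 0 to 9. With the replicate number as a block, 3257 genes were called on chow and 0 for the diet difference (1141 at an unadjusted p below 0.05). The labels do not say whether same-numbered libraries are paired. Cyp8b1 was called by DESeq2 and in the chow libraries alone. The simulation changed 99 genes 2-fold and 100 genes 4-fold, and its LKO libraries were not split into unlike pairs. Many more genes were called in the data, so its recovery of 67.7% at 2-fold does not carry over to them.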

Other observations

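The counts of other gene lists stand beside 12.9% of all genes called higher and 11.8% called lower. Immediate early genes, which answer growth signals within minutes, rose in 4 of 17 and fell in none, with 2 rises without LKO library 3, LKO library 4, WT library 2, WT library 3 or WT library 4, and 1 without LKO libraries 3 and 4. Nuclear genes of oxidative phosphorylation held 2 rises and 4 falls among 33, and 7 rises and 4 falls without LKO libraries 1 and 2. Cytosolic ribosomal proteins held 1 rise and 3 falls among 33, and no fall without WT library 4 or without LKO libraries 3 and 4. Nonsense-mediated decay factors held 1 rise and 2 falls among 16, and no fall without LKO library 3, LKO library 4 or WT library 3. Cytosolic heat shock proteins held 1 rise and 2 falls among 14, and 4 falls without LKO library 2. Bile duct cell markers held 1 rise among 8 tested, red blood cell markers 1 among 6 and adipocyte markers 1 among 2, and neither of the 2 pancreas markers tested was called. Red blood cell markers held 4 falls without LKO libraries 3 and 4.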
